A study of Mus musculus with 8 samples.

Results

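The adult hemoglobin genes Hba-a1, Hba-a2, Hbb-bs and Hbb-bt and the erythroid heme gene Alas2 were followed through all 8 libraries of mouse myocardium. They are 5 of the 33249 genes in the deposited table, found by gene name. They were chosen by their levels and by the differences between groups in earlier results of the same 8 libraries, so those levels and differences are given here as a description and without a test. The alpha genes and the beta genes were each summed, since near-identical copies share reads, and with Alas2 this gave 3 rows for the fit.

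There were 4 groups of 2 libraries, labelled fl/fl-Sham and CKO-Sham without infarction, and fl/fl-MI and CKO-MI with it. All groups carried Piezo1 alleles flanked by loxP sites. CKO stands for young adult mice that also carried a tamoxifen-inducible Cre recombinase driven by the Myh6 promoter, which is active in cardiomyocytes. They received a course of tamoxifen weeks before surgery. The label fl/fl stands for littermates without Cre, for which tamoxifen treatment is not stated in the sources used here. Myocardial infarction (MI) was made by tying off the left anterior descending artery for good, and the hearts labelled MI were taken at day 42. Sham surgery left the artery open, and the labels give no day for the sham hearts. Nothing in the labels says whether a library came from 1 heart or from pooled hearts, so the error between replicates may be partly technical.

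Hemoglobin is the oxygen carrier of red cells and is built from alpha and beta globin chains, each holding a heme group. Alas2 is the erythroid form of 5-aminolevulinate synthase, the enzyme that starts heme synthesis in red cell precursors, while Alas1 does so in other tissues. Mouse red cells lose their nucleus but keep globin RNA while they are reticulocytes, so RNA from a piece of tissue holds globin RNA from the blood in its vessels as well as from any other source.

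The deposited counts summed to between 73821747 and 88117573 per library. Read as 4 counts per read pair, this was 18455437 to 22029393 read pairs. The factor of 4 was inferred, since low counts pile up at multiples of 4, but some low counts are not multiples. All numbers of read pairs, their intervals and the limits for counts of 0 rest on it. Mitochondrially encoded genes took 43.1% to 46.4% of counts with sham surgery and 19.9% to 24.2% after MI. Cardiomyocyte markers were abundant in every library, led by Actc1 and Myh6 in FPKM, with a sum of 21068 to 39523 CPM, which are counts scaled to the normalized library size. The targeted gene did not separate the labels in RNA of whole myocardium, which includes cells that this Cre does not target. The authors checked the loss of its protein in isolated cardiomyocytes. The pair labelled fl/fl-Sham had 72.2 and 82.0 CPM of Piezo1 and the pair labelled CKO-Sham 76.7 and 88.3 CPM. After MI the pair labelled fl/fl had 53.5 and 64.8 CPM and the pair labelled CKO 56.3 and 64.6 CPM. Esr1, part of which is fused to the Cre of such transgenes, reached 707 and 402 CPM in the pair labelled CKO-MI, but also 331 CPM in 1 of the pair labelled fl/fl-MI, the second. It was at 5.52 to 8.36 CPM in the other 5 libraries, which included both labelled CKO-Sham. The library labelled fl/fl-MI 2 also stood apart in atrial genes, whose sum was 19858 CPM against 135 to 4451 CPM in the other 7. Nppa and Myl7, the most abundant of them by mean FPKM, had 11747 and 1157 CPM there. Every direction between genotypes below rests on the labels as deposited.

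The paralogs are almost the same sequence. In GENCODE M21, the coding sequences of Hba-a1 and Hba-a2 are both 429 bases long and differ at 1 base, C381T, and those of Hbb-bs and Hbb-bt are both 444 bases long and differ at 1 base, C417T. Positions count from 1 at the A of the start codon and the first gene's base is given first. The stretches around these bases are shown, 5′ to 3′, because they are the whole of the coding difference that a read could use. Capitals mark the differing base.
Hba-a1: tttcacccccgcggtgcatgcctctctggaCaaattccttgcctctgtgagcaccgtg
Hba-a2: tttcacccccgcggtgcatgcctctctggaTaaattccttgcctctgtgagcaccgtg
Hbb-bs: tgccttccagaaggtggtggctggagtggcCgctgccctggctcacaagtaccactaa
Hbb-bt: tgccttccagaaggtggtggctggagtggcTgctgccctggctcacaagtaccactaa
Of all stretches of 150 bases, the read length, 48.4% in the Hba-a1 transcript and 65.7% in the Hba-a2 transcript occur unchanged in the other gene. For Hbb-bs and Hbb-bt the shares are 58.7% and 50.7%. How the authors divided such reads is not given in the sources used here, so values of single paralogs are uncertain.

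The genes lie on 3 chromosomes. In the deposited coordinates, which follow GRCm38, Hba-a1 is at chr11:32283511-32284465 and Hba-a2 at chr11:32296489-32297298, both on the plus strand. Hbb-bt is at chr7:103812524-103813996 and Hbb-bs at chr7:103826534-103827928, both on the minus strand. Alas2 is at chrX:150547375-150570638 on the plus strand, inside the span of Apex2 on the opposite strand. Apex2 had 2.97 to 5.11 CPM, highest in the library labelled fl/fl-Sham 2 and lowest in that labelled CKO-MI 1. The kit marked strand, but whether counting used it is not given in the sources used here. If it did not, reads of Alas2 and Apex2 could not be told apart where their exons overlap.

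Because the alpha genes, the beta genes and Alas2 varied together across the libraries, the 250 bases before their RefSeq starts were read for GRCm38.p6. All 5 genes were found in RefSeq's table. Those starts differ from the deposited ones except for Hbb-bs, so the other windows reach into the deposited gene. Distances count from the RefSeq start. Hba-a1 and Hba-a2 share a run of 247 bases in these windows, so only Hba-a2 is printed, while Hbb-bs and Hbb-bt share no run longer than 14 bases. Capitals mark 4 motifs on either strand, with overlapping matches run together. They are GATAA (the core letters bound by GATA factors), CACCC (those bound by KLF1), CCAAT (the CCAAT box) and TATAA (the TATA box).
Hba-a2, chr11:32296242-32296491, plus strand: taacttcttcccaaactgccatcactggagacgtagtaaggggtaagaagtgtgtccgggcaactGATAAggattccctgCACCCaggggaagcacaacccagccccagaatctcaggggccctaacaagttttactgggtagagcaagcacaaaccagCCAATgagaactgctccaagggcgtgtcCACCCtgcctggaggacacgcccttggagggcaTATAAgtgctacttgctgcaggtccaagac
Hbb-bs, chr7:103827929-103828178, minus strand: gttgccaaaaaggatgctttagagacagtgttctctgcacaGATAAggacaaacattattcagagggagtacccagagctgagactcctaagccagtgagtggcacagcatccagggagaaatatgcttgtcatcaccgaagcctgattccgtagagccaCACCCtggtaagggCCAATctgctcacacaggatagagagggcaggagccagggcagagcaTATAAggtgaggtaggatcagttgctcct
Hbb-bt, chr7:103813924-103814173, minus strand: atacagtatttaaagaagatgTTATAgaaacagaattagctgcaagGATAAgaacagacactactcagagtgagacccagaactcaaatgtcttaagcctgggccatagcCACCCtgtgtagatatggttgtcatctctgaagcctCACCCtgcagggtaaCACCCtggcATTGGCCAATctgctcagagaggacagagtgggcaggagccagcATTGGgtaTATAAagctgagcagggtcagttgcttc
Alas2, chrX:150547167-150547416, plus strand: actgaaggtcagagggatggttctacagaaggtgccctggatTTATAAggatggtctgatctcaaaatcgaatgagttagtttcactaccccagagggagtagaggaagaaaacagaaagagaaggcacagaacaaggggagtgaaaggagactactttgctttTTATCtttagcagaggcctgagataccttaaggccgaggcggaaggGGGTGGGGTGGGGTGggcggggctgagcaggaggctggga
GATAA occurred in all 5 windows and in 22.6% of the 32851 promoters in the table. CACCC occurred in all 5 and in 52.0% of promoters, and TATAA in all 5 and in 22.8%. CCAAT occurred in the 4 hemoglobin windows, not in that of Alas2, and in 33.8% of promoters. All 4 motifs together were in 0.968% of promoters. In the hemoglobin windows a TATAA began 27 to 30 bases before the start, whereas in Alas2 the TATAA lay 203 to 208 bases before it and was matched on both strands. These are matches of letters and not measured binding.

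The alpha genes carry the chain found in all adult hemoglobin. With replicate 1 first, the pair labelled fl/fl-Sham had a summed alpha level of 198 and 75.4 CPM, and the pair labelled CKO-Sham one of 31.6 and 45.6 CPM. After MI the pair labelled fl/fl-MI had 353 and 145 CPM, and the pair labelled CKO-MI 116 and 158 CPM. The sham and MI groups overlapped, since the library labelled fl/fl-Sham 1 lay above 3 of the 4 MI libraries. In bulk RNA, fewer red cells in the tissue and less hemoglobin RNA per cell cannot be told apart.

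The beta genes followed the same order except among the middle libraries. The pair labelled fl/fl-Sham had a beta sum of 341 and 122 CPM, and the pair labelled CKO-Sham one of 47.2 and 61.3 CPM. The pair labelled fl/fl-MI had 388 and 239 CPM, and the pair labelled CKO-MI 152 and 211 CPM. As for the alpha genes, the highest library was that labelled fl/fl-MI 1 and the lowest that labelled CKO-Sham 1.

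Alas2 was far less abundant but had the same shape. The pair labelled fl/fl-Sham had 11.4 and 3.72 CPM of Alas2, and the pair labelled CKO-Sham 0.926 and 1.61 CPM. The pair labelled fl/fl-MI had 12.0 and 7.79 CPM, and the pair labelled CKO-MI 3.93 and 7.27 CPM. The lowest value rested on 17 read pairs (95% exact Poisson interval 9.9 to 27.2, counting error only) and the highest on 317. The order of the 8 libraries was the same for Alas2 and the summed beta genes (Spearman's rho 1.0 over 8 libraries).

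**Figure D1:**
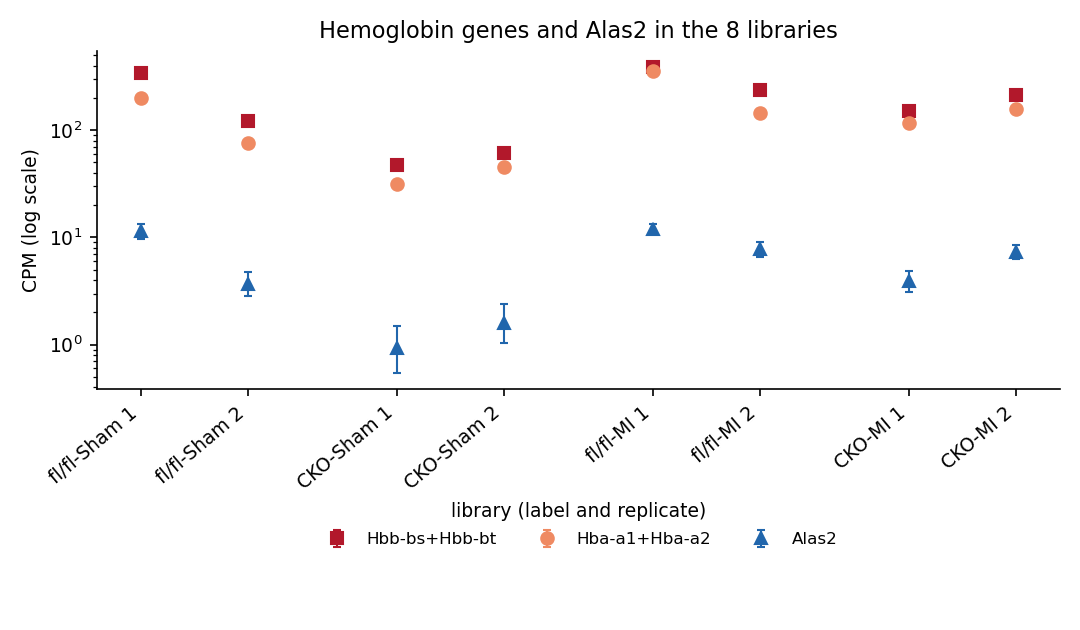
CPM on a log scale of the summed beta genes (squares), the summed alpha genes (circles) and Alas2 (triangles) in each of the 8 libraries, with bars for the 95% Poisson interval of the read pairs. The 3 symbols move together, with the highest values under the label fl/fl-MI 1 and the lowest under CKO-Sham 1.

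Per length, in the authors' FPKM (fragments scaled to transcript length and library size), Hbb-bs had the highest mean of the 5 genes and the beta sum lay above the alpha sum in all 8 libraries. Hbb-bs ranged from 39.5 to 523 FPKM and Hbb-bt, the other adult beta gene, from 10.8 to 135. Hba-a1 ranged from 18.8 to 348 FPKM, Hba-a2 from 15.1 to 252 and Alas2 from 0.301 to 6.37. The FPKM of Hbb-bs was 3.64 to 4.29 times that of Hbb-bt, and the FPKM of Hba-a1 was 1.25 to 1.48 times that of Hba-a2. These ratios were narrow beside the change in level, but they depend on how shared reads were divided. The ratio of summed alpha to summed beta FPKM was 0.585 to 0.764 in 7 libraries and 0.914 in the library labelled fl/fl-MI 1. The 4 hemoglobin genes together had 151 to 279 times the FPKM of Alas2, with the highest ratio in the library labelled CKO-Sham 1, where Alas2 rested on the fewest reads.

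The spread between replicates was wider in the pairs labelled fl/fl than in those labelled CKO, except for Alas2 after MI. The 2 libraries labelled fl/fl-Sham differed 2.63-fold in the alpha sum, 2.79-fold in the beta sum and 3.07-fold in Alas2. Those labelled fl/fl-MI differed 2.44-fold, 1.62-fold and 1.54-fold, those labelled CKO-Sham 1.44-fold, 1.30-fold and 1.74-fold, and those labelled CKO-MI 1.36-fold, 1.38-fold and 1.85-fold. Within each pair the same library was the higher for all 5 genes. Across the 8 libraries the highest level was 11.2 times the lowest for the alpha sum, 8.21 times for the beta sum and 12.9 times for Alas2, against a median of 2.1 times over all genes tested. Among the 14026 rows tested, 4.25%, 6.11% and 3.65% had a range at least as wide. The average difference between replicates was 0.90, 0.75 and 0.79 on the log2(CPM + 1) scale, against a median of 0.23. It was matched or exceeded by 1.87%, 3.34% and 2.92% of rows. The genes were chosen with their levels in these libraries known, so these shares are a description and not a test.

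Between MI and sham, with genotypes averaged, the fitted log2 fold change was 1.34 (SE 0.39) for the alpha sum, 1.09 (SE 0.34) for the beta sum and 1.27 (SE 0.42) for Alas2, or 2.54-fold, 2.13-fold and 2.41-fold higher after MI. Of all rows, 40.4% passed the threshold of edgeR's quasi-likelihood test (Benjamini-Hochberg adjusted p under 0.05) in either direction, 22.0% as higher and 18.3% as lower. As the 5 genes were chosen with this difference known, no test result is given for them. None of the 5 genes had all MI libraries above all sham libraries, which 21.0% of rows had. The median log2 fold change over all rows was 0.03 on TMM-normalized counts and 0.41 on log2(FPKM + 1). On the latter scale the log2 fold change was 1.91 for the alpha sum, 1.71 for the beta sum and 1.10 for Alas2. Without the library labelled fl/fl-MI 1 the alpha log2 fold change was 0.94, and without that labelled fl/fl-Sham 1 it was 1.77.

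The fitted difference between MI and sham had the higher value under the CKO label. Under the label fl/fl, the log2 fold change was 0.86 (SE 0.55) for the alpha sum, 0.44 (SE 0.48) for the beta sum and 0.39 (SE 0.58) for Alas2. Without the library labelled fl/fl-Sham 2 the last 2 turned to −0.12 and −0.21, and without that labelled fl/fl-MI 1 the alpha value was 0.06. Under the label CKO it was 1.83 (SE 0.56), 1.74 (SE 0.49) and 2.15 (SE 0.61). The interaction, the second minus the first, was 0.96 (SE 0.77), 1.31 (SE 0.67) and 1.76 (SE 0.83). Of all rows, 0 of 14026 passed the adjusted threshold for the interaction in edgeR, with 1191 (8.49%) at an unadjusted p under 0.05. DESeq2 called 60 rows as higher and 70 as lower there. Without the library labelled fl/fl-Sham 1 the interactions were 0.10, 0.38 and 0.73.

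Between the sham groups, the libraries labelled CKO-Sham lay below those labelled fl/fl-Sham for all 5 genes, without overlap. Of all rows tested, 23.8% lay lower without overlap. The log2 fold change was −1.83 (SE 0.56) for the alpha sum, −2.09 (SE 0.49) for the beta sum and −2.58 (SE 0.62) for Alas2, or 3.55-fold, 4.27-fold and 5.97-fold lower. Of all rows, 1 of 14026 passed the adjusted threshold in edgeR (0.00713%). The library labelled fl/fl-Sham 1 set much of the size. Without it the values were −0.97, −1.17 and −1.55. Esr1 did not mark either library labelled CKO-Sham as carrying the transgene, so no version of this comparison without such libraries could be made.

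After MI the groups overlapped for the alpha genes, and the libraries labelled CKO-MI lay below those labelled fl/fl-MI for the beta genes and Alas2. Of all rows, 15.5% lay lower without overlap. The log2 fold change was −0.86 (SE 0.55) for the alpha sum, −0.79 (SE 0.48) for the beta sum and −0.82 (SE 0.58) for Alas2. Without the library labelled fl/fl-MI 2, the one marked by Esr1 and atrial genes, the alpha value was −1.37 and the beta value −1.10. Without that labelled fl/fl-MI 1 the alpha value was −0.07 and the beta value −0.38. The comparisons with sham and with fl/fl share libraries and are not independent of each other.

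**Figure D2:**
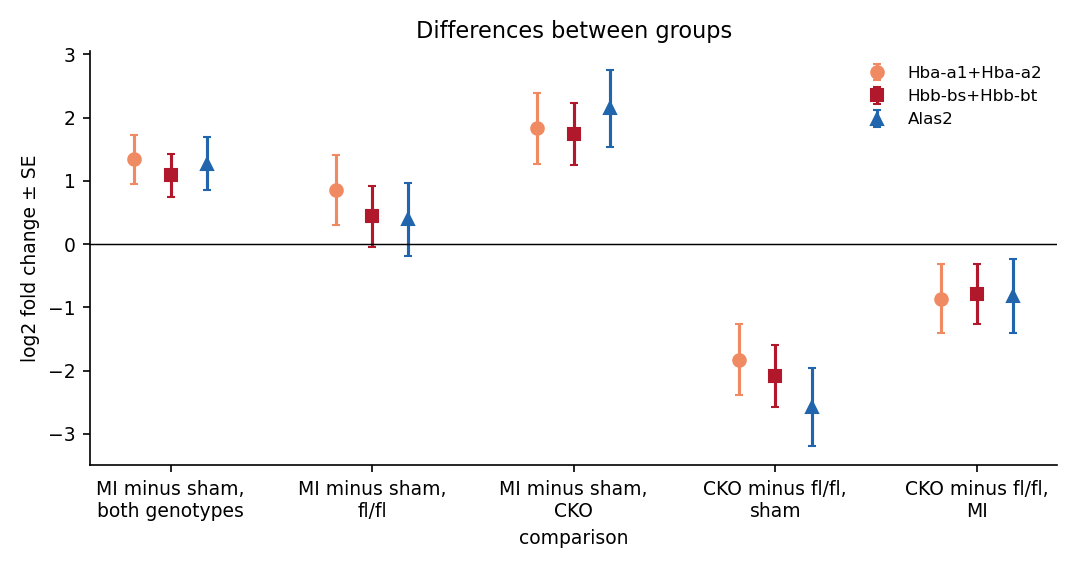
Log2 fold change of the summed alpha genes, the summed beta genes and Alas2 in 5 comparisons, with bars of 1 standard error from the edgeR fit over 8 libraries. The 3 symbols sit close together in each comparison, above 0 for MI minus sham and below 0 for CKO minus fl/fl.

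The deposited transcript table divided Alas2 between 2 coding transcripts. ENSMUST00000066337 has 2037 bases and 1764 coding bases, and ENSMUST00000112715 has 1892 bases and 1719 coding bases. The shorter coding sequence lacks the first 45 bases of exon 3, chrX:150552959-150553003, a length divisible by 3. They are printed because this is the only coding difference between the transcripts, in capitals with 30 bases on each side from the longer transcript, plus strand.
Alas2 exon 3: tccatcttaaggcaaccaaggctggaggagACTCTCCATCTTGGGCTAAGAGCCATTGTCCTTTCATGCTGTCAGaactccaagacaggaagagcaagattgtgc
Among the sham hearts, the pair labelled fl/fl had counts of 592 and 163 for the longer transcript and 76 and 70 for the shorter, and the pair labelled CKO had 65 and 92 for the longer and 0 and 0 for the shorter. After MI, the pair labelled fl/fl had 550 and 186 for the longer and 717 and 454 for the shorter, and the pair labelled CKO had 331 and 318 for the longer and 0 and 384 for the shorter. The division was uneven within groups, since the shorter transcript took 54.5% of the Alas2 count in the library labelled CKO-MI 2 and 0% in that labelled CKO-MI 1. A count of 0 allows up to 3 read pairs per library by counting error alone, and a wrong division of shared reads could hide more. The transcripts share most of their length, so these counts are estimates by the authors' method. Other Alas2 transcripts, with a retained intron or without a coding sequence, had counts of 0 to 5.

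**Figure D3:**
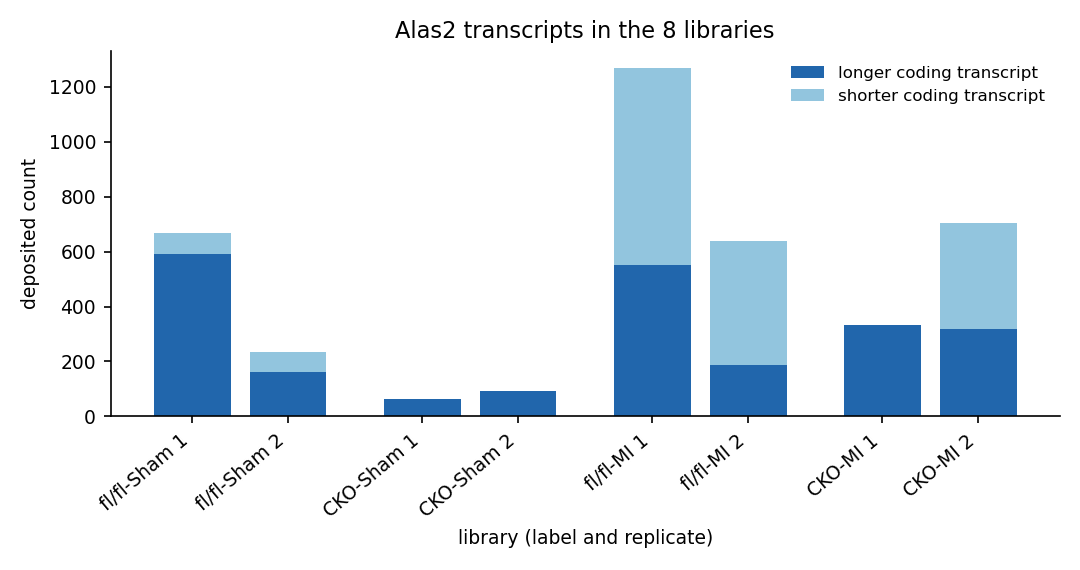
Deposited counts of the longer (dark) and shorter (light) coding transcript of Alas2, stacked, in each of the 8 libraries. The shorter one is at 0 in both libraries labelled CKO-Sham and in that labelled CKO-MI 1, and takes 717 counts in that labelled fl/fl-MI 1.

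Most genes that define red cells and their precursors were at or near 0 beside the hemoglobin genes. Of 23 genes on the red cell list, 9 were not analysed here, 10 were below the filter of a mean FPKM of 0.5 and 4 were tested. Slc4a1, the anion exchanger of the red cell membrane, had at most 0.661 CPM and was at 0 in 4 libraries, where 3 read pairs would have given 0.142 to 0.197 CPM. Gata1 and Klf1, transcription factors of red cell precursors, had at most 0.0945 and 0.247 CPM. Of the 4 tested, Rhd, a blood group protein of the red cell membrane, fell by 1.29 on the log2 scale after MI (SE 0.32, adjusted p = 0.0172 in edgeR), from 4.1 to 6.0 CPM in sham to 1.31 to 2.79 CPM. Car1, a carbonic anhydrase of red cells that reached 92.6 CPM here, fell by 0.70 (SE 0.14, adjusted p = 0.00872). Epor, the erythropoietin receptor, changed by −0.55 and did not pass the test, and its direction turned positive on log2(FPKM + 1). Car1 kept its direction on log2(FPKM + 1), at −0.14, but did not pass there.

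Of 21 genes that reticulocytes share with other tissues, 20 were tested, of which 5 rose, 3 fell and 12 did not pass after MI, against 22.0% of all rows that rose and 18.3% that fell. The median log2 fold change of MI minus sham was 0.07 against 0.03 over all rows. Sptb, the beta spectrin of red cells and muscle, rose by 1.81 (SE 0.19, adjusted p = 0.000992 in edgeR), from 26.5 to 36.2 CPM in sham to 79.3 to 134 CPM. Tent5c, a poly(A) polymerase, rose by 1.73 (SE 0.25), Tmod1, which caps actin filaments, by 0.97 (SE 0.24), catalase (Cat) by 0.62 (SE 0.09) and Xpo7 by 0.57 (SE 0.11). Mgst3, a microsomal glutathione transferase, fell by 0.84 (SE 0.15), Car2, a carbonic anhydrase, by 0.70 (SE 0.21) and Fbxo7 by 0.55 (SE 0.16), and the sign of Fbxo7 turned on log2(FPKM + 1), where it changed by 0.00. Prdx2, a peroxiredoxin abundant in red cells, changed by 0.05 and did not pass. Over both lists 10 genes passed, 5 in each direction, and leaving out any 1 of the 4 sham libraries left 6. On log2(FPKM + 1), 13 of the 20 passed as higher and none of them as lower, and over all rows 7025 passed as higher and 837 as lower, against 3092 and 2571 in the edgeR fit.

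The other enzymes of heme synthesis went in both directions. All 14 genes on that list were tested, and 4 rose, 5 fell and 5 did not pass after MI, where 22.0% of all rows rose and 18.3% fell, with a median of −0.15 against 0.03 over all rows. Cpox, which makes protoporphyrinogen, rose by 0.99 (SE 0.12, adjusted p = 0.0013 in edgeR), and Fech, which inserts iron as the last step, by 0.96 (SE 0.14). The mitochondrial transporter Abcb10 rose by 0.57 (SE 0.13) and Clpx, an unfoldase that acts on Alas enzymes, by 0.33 (SE 0.11). Alad, the second enzyme of the pathway, fell by 0.98 (SE 0.24), Ppox, the step before Fech, by 0.81 (SE 0.11) and Urod by 0.62 (SE 0.17). The iron importer of mitochondria Slc25a37 fell by 0.54 (SE 0.10) and Tmem14c by 0.35 (SE 0.11), and both turned positive on log2(FPKM + 1), where 7 genes of the list passed as higher and 0 as lower, against 50.1% and 5.97% of all rows. Alas1, which starts the pathway outside red cells, was at 59.0 to 72.1 CPM in sham and 66.3 to 103 CPM after MI, a change of 0.39 (SE 0.17) that did not pass (adjusted p = 0.115). Alas1 thus varied far less across the libraries than the 12.9-fold range of Alas2, and at a mean of 12.3 FPKM it lay above the 2.65 FPKM of Alas2. Of the 9 calls 4 were left without the libraries labelled fl/fl-Sham 1, fl/fl-Sham 2 or CKO-Sham 1, and 5 without that labelled CKO-MI 2.

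Of 27 genes of iron handling and heme clearance, 23 were tested, of which 10 rose, 1 fell and 12 did not pass after MI, where 22.0% of all rows rose and 18.3% fell, with a median of 0.44 against 0.03 over all rows. Lrp1, a receptor that takes up heme bound to hemopexin among many other ligands, rose by 1.39 (SE 0.27, adjusted p = 0.00721 in edgeR). Cp, the ferroxidase ceruloplasmin, rose by 1.12 (SE 0.17), transferrin (Trf) by 1.03 (SE 0.23), the transferrin receptor Tfrc by 1.02 (SE 0.16) and Ncoa4, which delivers ferritin for breakdown, by 1.02 (SE 0.16). The iron reductase Steap3 rose by 0.87 (SE 0.14), and the metal ion transporters Slc11a1 and Slc11a2 by 0.82 (SE 0.19) and 0.77 (SE 0.10). Chosen after their values were seen, Hmox1, the heme oxygenase that breaks heme down, rose by 0.71 (SE 0.17, adjusted p = 0.0167), and Flvcr1, a transporter that had been described as a heme exporter, was the 1 that fell, by 0.84 (SE 0.20, adjusted p = 0.0156). The ferritin chains Fth1 and Ftl1 changed by −0.39 and 0.19 and did not pass, and Fth1 turned positive on log2(FPKM + 1). On that scale 17 genes of the list passed as higher and 0 as lower, where 50.1% and 5.97% of all rows did. Without the libraries labelled fl/fl-Sham 1, fl/fl-Sham 2 or CKO-Sham 1 7 of the 11 calls were left. Macrophage markers, led by Lyz2 and C1qb in FPKM, had a sum of 499 to 567 CPM in sham and 475 to 1229 CPM after MI. Of these 9 genes 3 passed as higher, and the part of macrophages in the result was not tested.

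**Figure D4:**
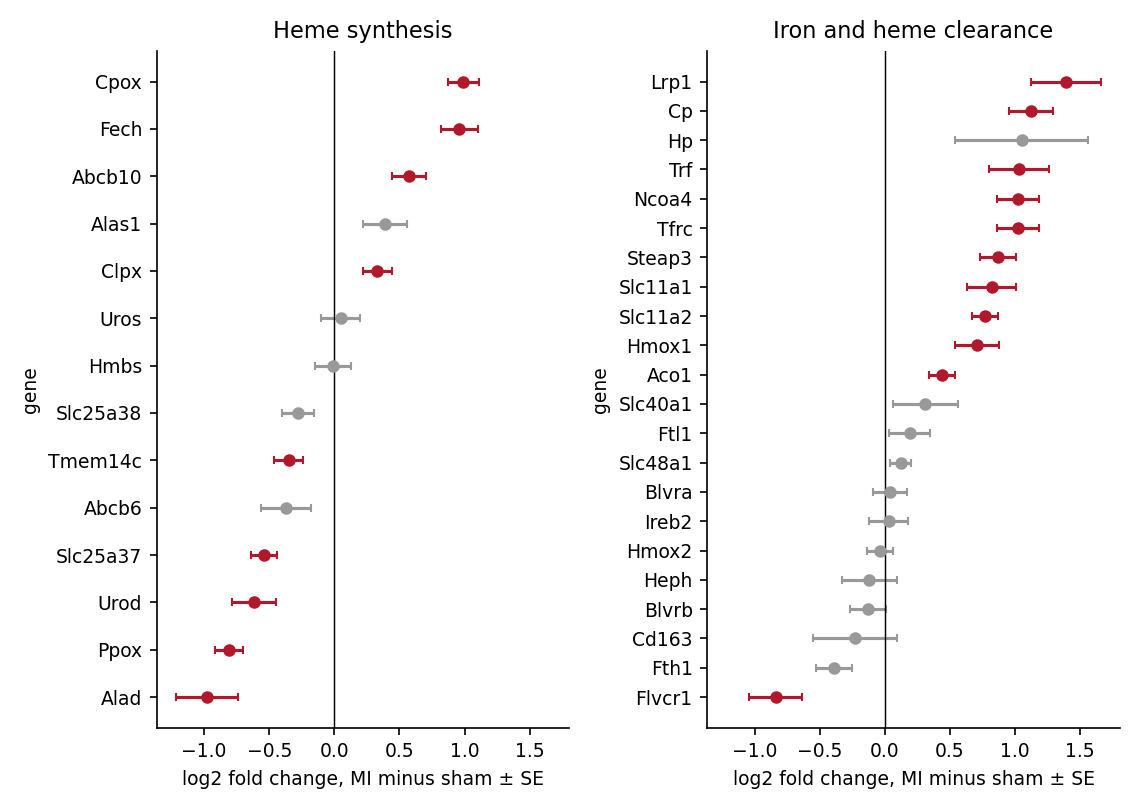
Log2 fold change of MI minus sham with 1 standard error for the 14 heme synthesis genes (left) and 22 of the 23 tested iron and heme clearance genes (right, Hamp left out because its standard error was 1.79). Red marks genes with an adjusted p under 0.05 in edgeR, 4 higher and 5 lower on the left and 10 higher and 1 lower on the right.

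Between genotypes, none (0) of the 61 tested genes on these 4 lists passed the adjusted threshold in edgeR in either comparison or in the interaction. At an unadjusted p under 0.05 there were 7 after MI, 1 higher and 6 lower in the libraries labelled CKO-MI. Over all rows 8.32% had such a p after MI, and 0% passed the adjusted threshold. There were 4 genes between the sham groups, where 3.88% of all rows had such a p. In the interaction there were 5, where 8.49% of all rows did. DESeq2 called 1 gene after MI and in the interaction, which was Cat in both (1.48% and 0.927% of all rows), and 0 between the sham groups, and limma on log2(FPKM + 1) called 0 in all 3. Without the library labelled fl/fl-MI 1, edgeR called 6 of the 61 after MI, where 11.9% of all rows passed, and 3 in the interaction, where 5.38% did, so these counts lay near those shares.

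Neither of the other globins tested passed the threshold after MI. Myoglobin (Mb), the oxygen store of muscle, was at 5528 to 7011 CPM in sham and 3971 to 6585 CPM after MI, a change of −0.35 (SE 0.19) that did not pass and turned positive on log2(FPKM + 1). Cytoglobin (Cygb) was at 63.6 to 74.0 CPM in sham and 61.0 to 200 CPM after MI, a change of 0.99 (SE 0.34, adjusted p = 0.0518 in edgeR). Ngb, neuroglobin, had at most 0.425 CPM and was not tested.

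Markers of other blood and vessel cells differed from list to list in which library was highest. The platelet sum was highest in the library labelled fl/fl-MI 1, as were the hemoglobin sum and the macrophage sum. In both pairs labelled fl/fl, replicate 1 was the higher for platelet and hemoglobin sums alike. In both pairs labelled CKO, the platelet sum was higher in replicate 1 and the hemoglobin sum in replicate 2. The 12 platelet genes summed to 16.6 to 23.5 CPM in sham, and after MI 43.2 and 23.3 CPM under the label fl/fl and 29.1 and 17.3 CPM under the label CKO. Their 2 most abundant genes by FPKM were Pf4, at 7.25 to 16.4 CPM, and Ppbp, at 0.398 to 10.1 CPM. Of the platelet genes 6 were tested, and only Clec1b passed after MI, lower by a log2 fold change of −1.43. Over all rows 22.0% passed as higher after MI and 18.3% as lower. The 12 neutrophil genes summed to 18.8 to 66.2 CPM, highest in the library labelled CKO-MI 2. Their most abundant genes by FPKM were Lcn2, which gave 54.0 CPM of that highest sum, and S100a9, which had its lowest value there, 0.371 CPM. The defining gene Ly6g reached at most 0.263 CPM. Of the 8 neutrophil genes tested only Mmp9 passed after MI, as higher. The 9 lymphocyte genes summed to 19.4 to 68.5 CPM, highest in the library labelled fl/fl-MI 2. Their most abundant genes by FPKM were Ighm, which gave 61.7 CPM of that highest sum, and Nkg7, which had 0.314 CPM there against 0.253 to 1.9 CPM in the other 7. Of the 3 lymphocyte genes tested only Ighm passed after MI, as higher. The 12 endothelial genes, led by Cdh5 and Pecam1 in FPKM, summed to 1896 to 2293 CPM in sham and 716 to 1209 CPM after MI. Of the 12, all tested, 8 passed as lower and none as higher, against 18.3% and 22.0% of all rows. Whether any of these cell types bears on the hemoglobin values was not tested.

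**Figure D5:**
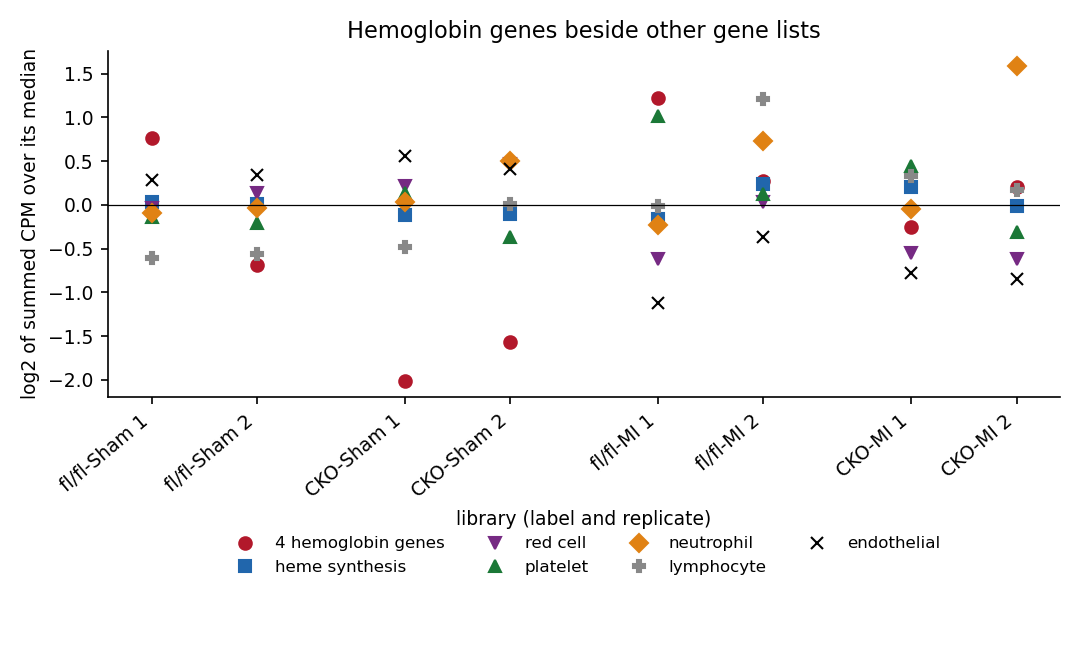
Log2 of the summed CPM of each gene list over its own median across the 8 libraries, by library, for the 4 hemoglobin genes (red circles) and 6 other lists. Hemoglobin spans from 78.8 to 741 CPM, while heme synthesis genes span from 386 to 510 CPM and platelet genes from 16.6 to 43.2 CPM.

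The genes most like the members in pattern were the members themselves. On log2(CPM + 1) over the 8 libraries, Pearson's r of Alas2 was 0.995 with the beta sum and 0.971 with the alpha sum (Spearman's rho 1.0 and 0.976), and 0.985 and 0.904 without the 2 libraries farthest from the median of Alas2. The 8 points share 4 groups and their scaling, and the genes were chosen together, so these are descriptions. Outside the members, the 10 genes nearest the alpha sum were Ints12 (r 0.960), Ttc39c, Jazf1, Tep1, Pgs1, Ppt1, Cyp51, Cited2, Nagpa and Gm21378 (r 0.915). The 10 nearest Alas2 were Tep1 (r 0.940), Ints12, Jazf1, Pgs1, Nagpa, Tcea1-ps1, Ttc7, Rhoj, Ttc39c and Snx30 (r 0.896). They moved by far less, since Ints12 ranged from 5.77 to 10.1 CPM and Tep1 from 14.6 to 27.9 CPM. Rhoj had the widest range of these, 4.17-fold, and its r with Alas2 was 0.585 without the 2 farthest libraries. No gene on the red cell, reticulocyte, heme or iron lists was among them.

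Genes beside the 3 loci went in both directions after MI. Within 100000 bases of the alpha genes, Nprl3, whose introns hold the alpha-globin enhancers, was at 11.5 to 18.8 CPM and changed by −0.17 (SE 0.15) after MI. Rhbdf1 and Mpg changed by 0.29 and −0.32 and did not pass either. Snrnp25 was lower by a log2 fold change of −0.76 (SE 0.19, adjusted p = 0.0192 in edgeR) and Sh3pxd2b higher by 1.45 (SE 0.19, adjusted p = 0.00189). Hbq1b, a theta-globin gene between the alpha genes, had at most 8 counts in a library, or 2 read pairs. Near the beta genes the sole other gene with deposited values was Dnajc19-ps, a pseudogene at 0.0824 to 0.918 CPM. It was lower after MI by a log2 fold change of −1.86 (SE 0.51, adjusted p = 0.0256 in edgeR), but had at most 58 counts in a library. Its MI values, 0.0824 to 0.248 CPM, lay near the 0.113 to 0.145 CPM that 3 read pairs would give there. Beside Alas2, Pfkfb1 was lower after MI by a log2 fold change of −1.71 (SE 0.53, adjusted p = 0.0384 in edgeR). It was at 7.96 to 13.9 CPM in sham and 1.34 to 8.92 CPM after MI. The library labelled fl/fl-MI 2 had the 8.92 CPM, within the sham range. Over all rows 22.0% passed as higher after MI and 18.3% as lower.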

How the data were processed

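RNA sequencing of 8 libraries of mouse myocardium was analysed, grouped by the deposited labels. The authors purified poly(A) RNA and sequenced it as paired-end reads of 150 bases, and cutadapt 1.9 and FastQC are named in the submitters' processing notes. The aligner, the counter and the genome build are not given in the sources used here, and the coordinates follow GRCm38. For each gene and transcript the authors deposited a whole-number count, not normalized, and an FPKM value, normalized to length and library size. The table of 94947 transcripts was used for the members only.

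Hba-a1 and Hba-a2, and Hbb-bs and Hbb-bt, were summed. The 14026 rows whose mean FPKM reached 0.5 were fitted together with edgeR 4.0.16 (quasi-likelihood test, TMM, a mean for each group, R 4.3.3), and p-values were adjusted by Benjamini-Hochberg over all rows. Calls were made at an adjusted p under 0.05. MI against sham averaged the genotypes. Standard errors were taken from the fold change and the F statistic. Other tables used Python 3.11.15 with pandas 2.3.3, and the fit was tested on simulated data. Alternatives were RLE scaling, no filter, DESeq2 1.42.0, limma 3.58.1 on log2(FPKM + 1) and log2(FPKM + 0.1), a replicate block, counts divided by 4, no mitochondrially encoded genes, each library left out, and only the 4 libraries compared. CPM are counts scaled to the TMM library size. Intervals and zero limits cover counting error only, and PCR reads without molecular identifiers are not independent molecules.

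The members and the gene lists were chosen with earlier results of these data known. Named were the members, from the red cell, reticulocyte, heme and iron lists up to 8 called genes with the smallest p and the 3 with the highest mean FPKM, the other globins, the 10 genes most like the alpha sum and Alas2, and each marker list with its 2 most abundant genes. Genes within 100000 bases of the members were added after the data were seen. The sex-linked list is given in the closing section. Some genes of the red cell list that this rule names are not reported here.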

Additional observations from a re-analysis of the deposited data

How the results depend on the processing

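The log2 fold changes of the alpha sum, the beta sum and Alas2 kept their direction for MI against sham and for both genotype comparisons under all alternatives. With 1 library left out in turn, MI against sham ranged from 0.94 to 1.77, from 0.81 to 1.55 and from 0.97 to 1.78 for the 3 rows. CKO-MI against fl/fl-MI ranged from −1.37 to −0.07, from −1.10 to −0.38 and from −1.29 to −0.43. CKO-Sham against fl/fl-Sham ranged from −2.36 to −0.97, from −2.65 to −1.17 and from −3.17 to −1.55, and the interaction from 0.10 to 1.76, from 0.38 to 1.86 and from 0.73 to 2.35. On log2(FPKM + 1) and log2(FPKM + 0.1) the beta value of MI against sham was 1.71 and 1.72. On log2(FPKM + 1) Alas2 was at −1.21 between the sham groups and 0.55 in the interaction, a scale that shrinks low genes. With 1 library left out, the counts of red cell, heme and iron genes called after MI ranged from 6 to 12, from 4 to 11 and from 7 to 14, and fewer samples were then fitted. The iron count was 17 on log2(FPKM + 1) and 18 on log2(FPKM + 0.1), where the median of all genes was 0.41 and 0.56, and the cause of the difference was not tested further. Between genotypes, the count of called list genes ranged from 0 to 6 after MI, stayed at 0 between the sham groups and ranged from 0 to 3 in the interaction with 1 library left out. It was 1 with DESeq2 after MI and in the interaction, and 2 between the sham groups with only the 4 libraries compared. These causes were not tested.

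The labels give the groups the same replicate numbers, but nothing says that a number marks a shared litter or day, and the correlation of replicate differences between groups ran from −0.209 to 0.0561, so the numbers were not taken as pairs. With the replicate block, MI against sham was 1.35 for the alpha sum, 1.11 for the beta sum and 1.28 for Alas2, and the counts of called red cell, heme and iron genes were 10, 7 and 11 against 10, 9 and 11. Depth limits Alas2 most, which rested on as few as 17 read pairs.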

Other observations

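Some genes of heme and iron clearance did not pass the test but varied widely between libraries, and are given after their values were seen. Hp, the hemoglobin scavenger haptoglobin, was at 8.85 to 21.8 CPM in the sham libraries and 12.0 to 64.1 CPM in the MI libraries (log2 fold change 1.05, SE 0.51). Cd163, the macrophage receptor for haptoglobin bound to hemoglobin, was at 15.8 to 38.3 CPM in sham and 10.4 to 49.0 CPM after MI. Hamp, which encodes the iron hormone hepcidin, had 0.329 CPM or less in sham and reached 13.5 CPM after MI, in the library labelled fl/fl-MI 2. The 5 sex-linked genes, led by Ddx3y and Eif2s3y, summed to 166 to 212 CPM in all 8 libraries. This sum pools Xist with Y-linked genes, so it does not give the sex of the animals. Across the libraries the Y-linked Ddx3y was at 57.9 to 86.5 CPM and Xist at 5.9 to 12.8 CPM.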
